A study of Mus musculus with 12 samples.

Results

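The genes followed here are 8 members of the insulin signaling pathway, Insr, Irs1, Irs2, Pik3r1, Akt2, Foxo1, Foxo3 and Trib1. They were chosen by name from the 32285 genes counted, with earlier results of these data known. Their RNA was measured by single-nucleus RNA sequencing (snRNAseq) in 24 samples from 8 mice, each of which gave 1 piece of liver tissue (Liver, L), 1 pellet of liver cells after perfusion and isolation (Cell Suspension, CS) and 1 dish of hepatocytes cultured for 24 hours (Primary Hepatocytes, PH). The mice were wild-type males of 10 to 12 weeks on a chow diet, and no sample type carried a transgene or a deletion. Their strain is C57BL/6NTac in the methods and C57BL6J in the sample labels. The Liver piece was cut from the median lobe after a saline flush and before collagenase entered the rest of the liver, Cell Suspension was washed by low-speed spins that favour hepatocytes, and Primary Hepatocytes were kept on collagen overnight in a medium with 1 nM insulin, 1 µM dexamethasone and 0.5% serum. The culture medium thus held insulin and a glucocorticoid, neither of which was varied among Primary Hepatocytes. Neither was added to the other sample types, so their effects cannot be told apart from those of culture. Cell Suspension was washed, and Primary Hepatocytes were first plated, in a medium with more serum. Isolation and culture were each done once per liver.

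Insulin binds the insulin receptor on the hepatocyte surface, and the activated receptor phosphorylates the adaptor proteins IRS1 and IRS2. These recruit phosphoinositide 3-kinase (PI3K), the lipid product of PI3K activates the kinase AKT, and AKT keeps the FOXO transcription factors out of the nucleus. In liver this lowers the transcription of genes for glucose production and raises that for glycogen and fat synthesis, and IRS2 is itself known to be transcribed more when FOXO is active or when cAMP rises during fasting. RNA levels, which are what was measured, do not show phosphorylation or signaling.

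UMIs, the molecular identifiers that count each captured RNA molecule once, were summed per sample over the 53467 nuclei that the authors annotated, and levels are given as CPM, the share of a gene in the UMIs of a sum, after TMM normalization (normalised CPM). The sums held 8502525 to 32104065 UMIs per sample in Liver, 2709659 to 17760883 in Cell Suspension and 10436255 to 21713090 in Primary Hepatocytes. Hepatocyte nuclei numbered 15166, 13339 and 16283 in Liver, Cell Suspension and Primary Hepatocytes, and most lay in different clusters, annotated as hepatocytes, isolated hepatocytes and cultured cells, and each member had between 117 and 18905 UMIs in each of their 24 sums. The 10 hepatocyte markers checked summed to 10894 to 15757 CPM in Liver hepatocyte nuclei and 13656 to 17566 in Cell Suspension, but to 2415 to 6958 in Primary Hepatocytes, with none of them at 0. Markers of 3 other cell types in the hepatocyte sums were higher in Primary Hepatocytes, none of them at 0 there or in Liver (Kupffer and biliary markers overlapped), with summed endothelial markers at 35.6 to 57.3 CPM in Liver and 124 to 179 in Primary Hepatocytes, summed stellate cell markers at 25.9 to 57.2 and 89.7 to 655 CPM, and summed leukocyte markers at 14.1 to 35.1 and 48.7 to 77.4 CPM. Their part in the results was not tested. The samples were run in 6 pools of 4, of which 2 held no Primary Hepatocytes and 2 held no Liver, so only pools 2 and 5 held all 3 sample types. Of 53128 distinct barcodes, 337 occurred in more than 1 pool.

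In hepatocyte nuclei, cultured cells had less RNA of 5 of the 8 members than liver tissue had, and freshly isolated cells had 4.34-fold more Irs2 and 3.17-fold more Trib1 than tissue. Pik3r1 fell 3.76-fold from Liver to Primary Hepatocytes, Irs1 3.36-fold, Foxo3 2.44-fold, Akt2 1.87-fold and Insr 1.61-fold, whereas Trib1 was 1.48-fold higher. Between Liver and Primary Hepatocytes, 6 of 8 members passed the threshold of 0.05 on the adjusted p from edgeR, while 53.7% of all 26778 genes tested did. From Cell Suspension to Primary Hepatocytes 7 of 8 fell and none rose, against a background of 50.4% called, and from Liver to Cell Suspension 3 rose and 1 fell, against 22.3%. The median change of the members was -0.80 on the log2 scale from Liver to Primary Hepatocytes, -1.02 from Cell Suspension to Primary Hepatocytes and 0.03 from Liver to Cell Suspension, and the medians of all genes were 0.10, 0.02 and 0.02. The comparisons share samples with each other, so they are not independent.

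**Figure D1:**
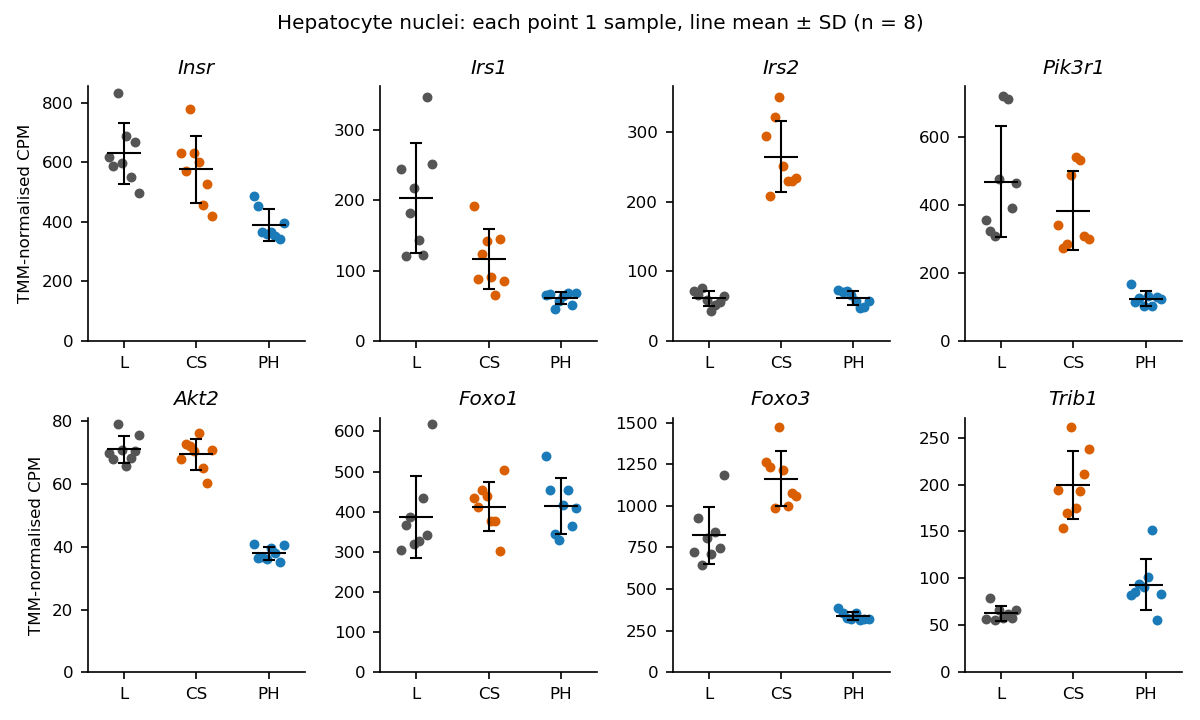
Level of each of the 8 genes in hepatocyte nuclei of the 24 samples, in normalised CPM on linear axes from 0, with 1 point per sample and black bars for the mean ± SD of each sample type (8 samples each). Irs2 and Trib1 stood highest in Cell Suspension, Pik3r1, Akt2 and Foxo3 lay lower in every Primary Hepatocytes sample than in any other sample, and Foxo1 overlapped throughout.

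The receptor gene Insr (chromosome 8, 3122061 to 3279617, minus strand of GRCm38) encodes the receptor tyrosine kinase that binds insulin. In hepatocyte nuclei it had a median of 607 normalised CPM in the Liver samples (497 to 832), of 585 in the Cell Suspension samples (421 to 779) and of 365 in those of Primary Hepatocytes (344 to 488). All 8 Primary Hepatocytes samples lay below all 8 Liver samples, while Cell Suspension overlapped both. The change from Liver to Primary Hepatocytes was -0.69 ± 0.13 (log2, SE) with an adjusted p of 3.34e-05 (edgeR), that from Cell Suspension was -0.56 ± 0.13, and Cell Suspension and Liver differed by -0.13 ± 0.13, which did not pass. Before TMM scaling the Insr level of all 3 sample types overlapped, and with library totals its change from Liver to Primary Hepatocytes was -0.11 and did not pass.

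The adaptors Irs1 and Irs2 carry the signal from the receptor to PI3K, and their RNA went in opposite directions after isolation. Irs1 (chromosome 1, 82233101 to 82291416, minus strand) had a median of 199 normalised CPM in the Liver samples (121 to 347), of 107 in the Cell Suspension samples (64.8 to 193) and of 64.5 in those of Primary Hepatocytes (44.8 to 68.3). Every Primary Hepatocytes sample was below every Liver sample, and in each of the 8 mice Cell Suspension was lower than Liver, although these 2 groups overlapped. Irs1 changed by -1.75 ± 0.21 from Liver to Primary Hepatocytes (adjusted p = 1.86e-08), by -0.81 ± 0.21 from Liver to Cell Suspension (adjusted p = 0.00413) and by -0.94 ± 0.21 from Cell Suspension to Primary Hepatocytes (adjusted p = 0.000271).

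Irs2 (chromosome 8, 10984681 to 11008458, minus strand) had a median of 62.0 normalised CPM in the Liver samples (43.2 to 76.4), of 243 in the Cell Suspension samples (208 to 351) and of 61.6 in those of Primary Hepatocytes (47.6 to 73.8). The lowest Cell Suspension sample was far above the highest sample of either other type, and Liver and Primary Hepatocytes lay over each other. Irs2 was 2.12 ± 0.14 higher on the log2 scale in Cell Suspension than in Liver (adjusted p = 1.10e-12) and 2.11 ± 0.14 lower in Primary Hepatocytes than in Cell Suspension (adjusted p = 4.27e-14), and the difference between Primary Hepatocytes and Liver was 0.01 ± 0.13 (adjusted p = 0.950). The same order held within both pools that hold all sample types. In pool 2 it was 58.9 normalised CPM in Liver of mouse 4, 252 and 234 in Cell Suspension of mice 5 and 8, and 65.3 in Primary Hepatocytes of mouse 4. In pool 5 it was 43.2 in Liver of mouse 5, 351 in Cell Suspension of mouse 4, and 72.3 and 57.5 in Primary Hepatocytes of mice 3 and 8. Irs2 overlaps 9530052E02Rik, a transcript on the opposite strand, and the sources used here do not state whether the counting used strand. The overlapping gene held 5475 UMIs in hepatocyte nuclei against 32500 for Irs2, at 9.47 to 16.1 normalised CPM in Liver, 26.9 to 62.3 in Cell Suspension and 4.03 to 7.37 in Primary Hepatocytes, so it too was highest in Cell Suspension and reads of the pair cannot be told apart without strand.

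The promoters of both adaptors are shown because they were the only ones, among 10 promoters of 6 members for which RefSeq sequences were at hand, to hold either the insulin response element TGTTTTG or the E-box CACGTG, searched on both strands. The RefSeq start of Irs2 lies upstream of the gene end used for counting. The windows run from 250 bases before to 50 bases after the RefSeq start of transcription on GRCm38.p6, and capitals mark these motifs, which in Irs1 overlap by 2 letters at 1 place. Irs1 is at chr1:82291390-82291689 and Irs2 at chr8:11008880-11009179, both written 5′ to 3′ on the minus strand.
Irs1: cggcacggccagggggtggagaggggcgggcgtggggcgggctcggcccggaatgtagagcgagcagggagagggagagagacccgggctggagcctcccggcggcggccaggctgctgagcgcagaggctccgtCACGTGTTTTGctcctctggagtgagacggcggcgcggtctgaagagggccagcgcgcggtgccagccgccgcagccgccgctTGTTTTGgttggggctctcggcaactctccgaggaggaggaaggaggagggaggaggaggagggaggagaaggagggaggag
Irs2: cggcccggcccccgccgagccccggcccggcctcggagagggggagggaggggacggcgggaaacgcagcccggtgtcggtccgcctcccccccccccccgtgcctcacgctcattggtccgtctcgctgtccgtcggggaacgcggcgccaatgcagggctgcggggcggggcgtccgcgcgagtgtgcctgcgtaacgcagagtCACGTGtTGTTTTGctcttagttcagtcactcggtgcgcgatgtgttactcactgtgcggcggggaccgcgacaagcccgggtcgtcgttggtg
The E-box began 115 bases before the start of Irs1 and 44 before that of Irs2, and TGTTTTG began 111 and 32 bases before the start in Irs1 and 37 before it in Irs2. Of all 32851 promoters of the same length, 6.28% held TGTTTTG and 7.15% held CACGTG. The letters TGTTTAC, the only ones searched for as a FOXO site, were found in 3.65% of promoters. The cAMP response element TGACGTCA was found in 1.79%. Neither was in any of the 10, which may still hold FOXO sites of other letters. These matches describe sequence, and binding was not measured.

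Pik3r1 (chromosome 13, 101680563 to 101768217, minus strand) encodes the p85 regulatory subunit through which PI3K docks on the IRS proteins. It had a median of 428 normalised CPM in the Liver samples (309 to 718), of 325 in the Cell Suspension samples (272 to 542) and of 125 in those of Primary Hepatocytes (101 to 168). Primary Hepatocytes lay below both other types without overlap, and these overlapped each other, with Liver of mice 5 and 6 at 718 and 710 and the other Liver samples at 475 or less. Before TMM scaling, Primary Hepatocytes reached 218 CPM and overlapped Cell Suspension, which began at 211. The change was -1.91 ± 0.19 from Liver to Primary Hepatocytes (adjusted p = 4.98e-10) and -1.62 ± 0.19 from Cell Suspension (adjusted p = 1.35e-08), against -0.29 ± 0.19 between Liver and Cell Suspension, which did not pass.

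Akt2 (chromosome 7, 27591552 to 27640826, plus strand), the AKT form that predominates in insulin-responsive tissues, had the narrowest spread. It had a median of 70.2 normalised CPM in the Liver samples (65.8 to 79.0), of 70.6 in the Cell Suspension samples (60.4 to 76.2) and of 37.4 in those of Primary Hepatocytes (35.3 to 41.0). Liver and Cell Suspension overlapped, and every Primary Hepatocytes sample was below both. Akt2 changed by -0.90 ± 0.08 from Liver (adjusted p = 2.52e-11) and by -0.87 ± 0.08 from Cell Suspension to Primary Hepatocytes (adjusted p = 7.37e-11), and by -0.03 ± 0.08 from Liver to Cell Suspension. Before TMM scaling the Akt2 levels of the sample types overlapped.

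The FOXO genes encode the transcription factors that AKT holds in the cytoplasm, and their RNA differed from each other. Foxo1 (chromosome 3, 52268336 to 52353221, plus strand) had a median of 355 normalised CPM in the Liver samples (304 to 618), of 422 in the Cell Suspension samples (302 to 505) and of 413 in those of Primary Hepatocytes (330 to 539). All 3 types overlapped, and no comparison of Foxo1 passed the threshold with TMM scaling, with differences of 0.09 ± 0.14 for Primary Hepatocytes over Liver, 0.01 ± 0.14 over Cell Suspension and 0.09 ± 0.14 for Cell Suspension over Liver. Before TMM scaling, Foxo1 lay at 460 to 697 CPM in Primary Hepatocytes, above the 278 to 455 CPM of Cell Suspension. Foxo3 (chromosome 10, 42181841 to 42276755, minus strand) had a median of 778 normalised CPM in the Liver samples (646 to 1186), of 1147 in the Cell Suspension samples (990 to 1472) and of 324 in those of Primary Hepatocytes (312 to 384). Primary Hepatocytes were below both other types without overlap, and Cell Suspension was above Liver in 7 of 8 mice with overlapping ranges. Foxo3 changed by -1.29 ± 0.12 from Liver to Primary Hepatocytes (adjusted p = 2.13e-10), by -1.79 ± 0.13 from Cell Suspension (adjusted p = 2.61e-13) and by 0.50 ± 0.12 from Liver to Cell Suspension (adjusted p = 0.00293).

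Trib1 (chromosome 15, 59648350 to 59657099, plus strand) encodes a pseudokinase that directs the transcription factor C/EBPα to degradation and is known for its part in hepatic lipid metabolism. It had a median of 60.4 normalised CPM in the Liver samples (55.4 to 79.1), of 194 in the Cell Suspension samples (154 to 261) and of 88.3 in those of Primary Hepatocytes (56.2 to 152). Each Cell Suspension sample was above all samples of the other types, while Primary Hepatocytes overlapped Liver and were higher in 7 of 8 mice. Before TMM scaling, Primary Hepatocytes at 76.3 to 191 CPM overlapped Cell Suspension at 126 to 215. Trib1 rose by 1.67 ± 0.15 from Liver to Cell Suspension (adjusted p = 6.78e-10), fell by 1.10 ± 0.14 from Cell Suspension to Primary Hepatocytes (adjusted p = 1.19e-07) and remained 0.57 ± 0.14 higher in Primary Hepatocytes than in Liver (adjusted p = 0.00109). In pool 2 it was 66.4 normalised CPM in Liver, 175 and 238 in Cell Suspension and 90.6 in Primary Hepatocytes, and in pool 5 it was 58.1, 261, and 94.0 and 83.4. The order of the sample types was the same in both pools.

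With the pool as a covariate, the hepatocyte calls of all 8 members in the 3 comparisons were as without it. In pools 2 and 5, Pik3r1 and Foxo3 were lower in each Primary Hepatocytes sample than in any other sample of the pool, with Foxo3 at 323 to 325 against 709 to 1472 normalised CPM and Pik3r1 at 101 to 127 against 298 to 718. Irs1 was 217 normalised CPM in Liver, 90.3 and 84.6 in Cell Suspension and 56.4 in Primary Hepatocytes of pool 2. In pool 5 Irs1 was 144 and 142 in Liver and Cell Suspension and 44.8 and 68.3 in Primary Hepatocytes, so Irs1 was lower in Cell Suspension than in Liver in pool 2 and about level in pool 5. In neither pool did the Liver and Cell Suspension samples come from the same mouse.

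The scaling of the sums bears on these changes, because the TMM factors differed between sample types, with means of 0.905 for Liver, 0.830 for Cell Suspension and 1.34 for Primary Hepatocytes. Scaling by library totals alone moved the median of all genes to 0.66 from Liver to Primary Hepatocytes, to 0.70 from Cell Suspension to Primary Hepatocytes and to -0.11 from Liver to Cell Suspension, and the share of called genes that were higher went from 51.0% to 75.7%, from 53.4% to 80.2% and from 36.5% to 19.9%. With library totals Pik3r1, Irs1, Foxo3 and Akt2 still fell from Liver to Primary Hepatocytes (-1.34, -1.18, -0.73 and -0.34), Trib1 rose by 1.12, and Foxo1 and Irs2 passed as higher at 0.66 and 0.58, values at or below the median shift of all genes. From Cell Suspension to Primary Hepatocytes Insr turned to 0.15, Irs1 at -0.24 no longer passed, and Foxo1 passed at 0.70. The rise of Irs2 and Trib1 from Liver to Cell Suspension was 1.97 and 1.53 with library totals and 2.20 and 1.74 with RLE size factors, and the hepatocyte calls of all 8 members were the same with RLE as with TMM.

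**Figure D2:**
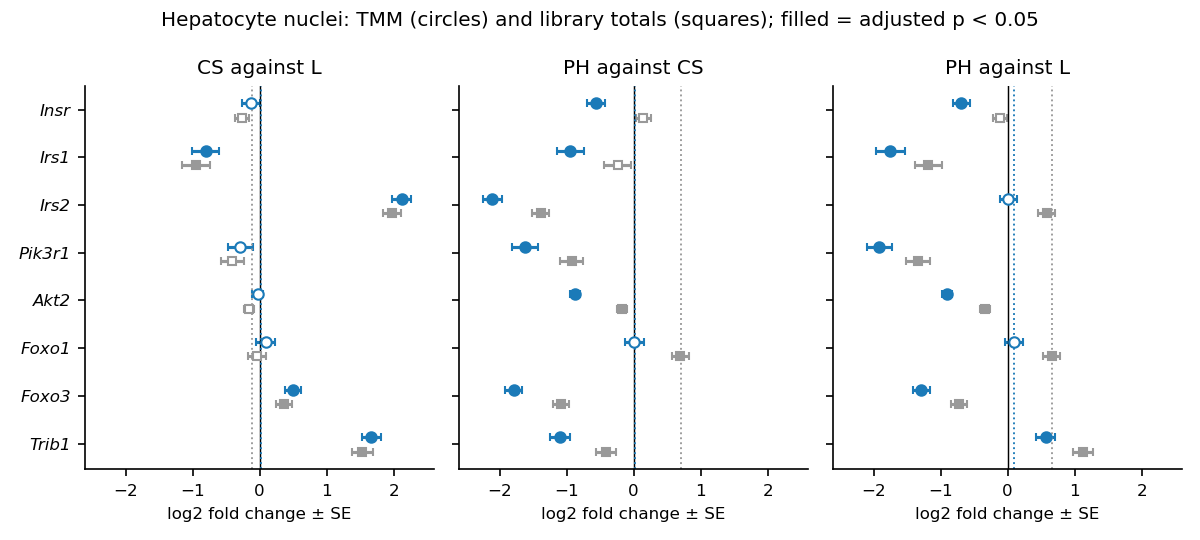
Log2 change of each gene in hepatocyte nuclei with its SE for the 3 comparisons, with circles for TMM and squares for library totals, filled where the adjusted p was below 0.05, and dotted lines at the median change of all genes under each scaling. Irs2 lay at 2.12 for Cell Suspension over Liver and at -2.11 for Primary Hepatocytes over Cell Suspension with TMM, and the library totals shifted the changes of Primary Hepatocytes upward.

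Spliced and unspliced UMIs, which were counted separately, showed that the share of spliced RNA rose for most members, and over all genes, after isolation. The spliced share is the percentage of spliced among spliced and unspliced UMIs, and its average over all genes in hepatocyte nuclei was 19.5% for Liver, 27.2% for Cell Suspension and 29.1% for Primary Hepatocytes (8 samples each). The tests of members below did not take off this rise, and the share of all genes that changed is not given. Irs2 went from 14.2% to 31.5% and 27.0%, with Liver at 10.3% to 17.6%, Cell Suspension at 20% to 43.4% and Primary Hepatocytes at 18.5% to 38.3%. No Liver sample reached the lowest sample of the other types. The difference of 17.3 percentage points between Cell Suspension and Liver had an adjusted p of 0.000373 in an exact two-sided permutation test, adjusted over 24 tests, and that of -4.47 points between Primary Hepatocytes and Cell Suspension had one of 0.239. These permutation tests did not use the pairing of samples by mouse.

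Trib1, the shortest of these genes at 8.75 kb, was mostly spliced, at 68.8% in tissue, 79.8% after isolation and 81.4% in culture. The others were mostly unspliced, with averages from 2.79% for Insr to 14.3% for Akt2 in Liver. Between Liver and Cell Suspension the spliced share was higher by 3.32 points for Insr, 5.43 for Irs1 and 5.03 for Pik3r1, and by 0.82 points for Foxo3, which did not pass (exact permutation, adjusted p = 0.341). From Cell Suspension to Primary Hepatocytes the spliced share passed for Foxo1 and Insr. That of Foxo1 went from 4.36% in tissue and 5.72% after isolation to 8.93% in culture (exact permutation, adjusted p = 0.000373 against each), without overlap between Cell Suspension and Primary Hepatocytes. That of Insr fell by 1.82 points over the same step (exact permutation, adjusted p = 0.0357), a call that was lost on leaving out mouse 2, 5, 6, 7 or 8. The differences of 2.89 points for Akt2, 1.60 for Trib1 and 1.16 for Foxo3 did not pass, although Akt2 passed without mouse 1, 6 or 7 and Foxo3 without mouse 8.

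Counting 1 splicing state alone changed some comparisons. With spliced UMIs only, Irs2 rose by 2.94 from Liver to Cell Suspension, Insr rose by 0.56, Irs1 differed by 0.014 and Foxo3 by 0.34, the last 2 of which did not pass. From Liver to Primary Hepatocytes spliced Foxo1 rose by 0.89 and spliced Irs2 by 0.68, and the other 6 members kept their direction and passed. With unspliced UMIs only, Irs2 rose by 1.93 and Trib1 by 1.25 from Liver to Cell Suspension, and Trib1 differed by -0.054 between Primary Hepatocytes and Liver, so the higher Trib1 level in culture was seen in spliced and not in unspliced RNA. Ambiguous UMIs, which neither count includes, were 18.1% to 31.0% of all Trib1 UMIs of a hepatocyte sum.

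Hepatocytes along the liver lobule differ in gene expression from the portal to the central vein. Within each Liver and Cell Suspension sample, hepatocyte nuclei of at least 1000 UMIs were ranked by the share of 10 pericentral genes among the UMIs of 10 pericentral and 10 periportal genes, and the outer tertiles (central and portal side) were compared with the mouse as a block. In liver tissue Irs1 was higher on the central side by 0.72 ± 0.06 on the log2 scale (adjusted p = 4.75e-10), at 127 to 421 normalised CPM (median 222) against 88.6 to 213 (median 136) on the portal side, and it was higher there in 8 of 8 mice. Pik3r1 at 0.17 ± 0.05 and Foxo1 at 0.15 ± 0.05 also passed (adjusted p = 0.0186 and 0.0442), each higher in 6 of 8 mice. These were 3 of 8 members in Liver, against 20.7% of all genes, and in Cell Suspension 3 of 8 passed against 15.7%. Pik3r1 lost its call without mouse 3 or 6, Foxo1 without mouse 3, 4 or 7 and with library totals, and both without the mouse block.

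In Cell Suspension the difference in Irs2 between the sides was the widest of the members. Irs2 ranged from 262 to 417 normalised CPM on the central side (median 338) and from 89.8 to 180 on the portal side (median 119). The 2 sides did not overlap, and central was higher in 8 of 8 mice, by 1.47 ± 0.10 (adjusted p = 5.06e-25). In Liver Irs2 was 39.6 to 77.3 on the central side (median 51.7) and 36.2 to 70.3 on the portal side (median 55.3), a difference of 0.05 ± 0.08. The difference between the 2 differences was 1.41 ± 0.12 (adjusted p = 1.11e-13), and Irs2 was the only member among 8 to pass that test, which 1.08% of genes did. Both sides of Cell Suspension were above all Liver samples of either side, although the levels of the 2 sample types were normalised separately.

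Irs1 was also higher on the central side in Cell Suspension, by 0.47 ± 0.11 (adjusted p = 0.000392, 7 of 8 mice), and Foxo3 by 0.28 ± 0.10 (adjusted p = 0.0327, 7 of 8 mice), a call that was lost on leaving out mouse 1, 2, 3, 5, 7 or 8 and with nuclei split at the median in place of tertiles. Both calls were lost without the mouse block. Insr, Akt2 and Trib1 did not pass in either sample type, although Trib1 passed in Liver without mouse 5, at 0.28. Nuclei of the 2 sides differed in depth in some samples, with a median of 11143.5 UMIs on the central and 4000 on the portal side in Cell Suspension of mouse 3 and of 3842 and 7695.5 in that of mouse 4. In Cell Suspension of mice 1, 3 and 7 the portal tertile ended at a pericentral share of 0, so its nuclei had no pericentral UMI. The part of depth in these differences was not tested, and with nuclei of at least 2000 UMIs the Irs2 difference in Cell Suspension was 1.47.

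**Figure D3:**
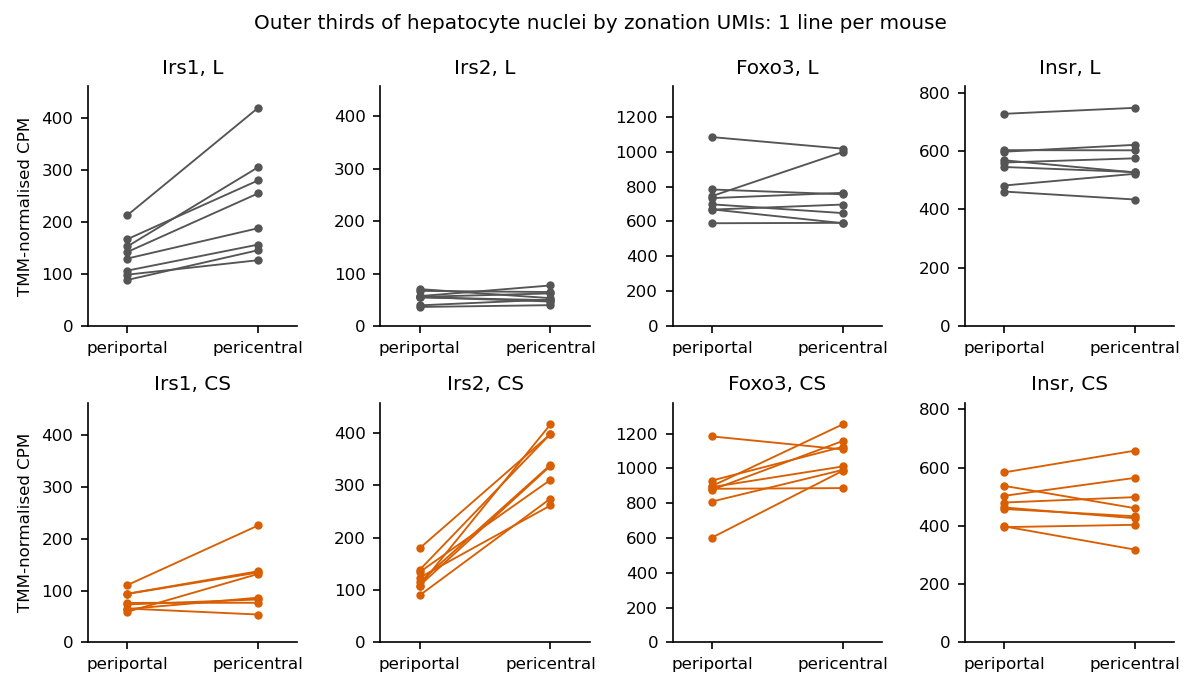
Levels of Irs1, Irs2, Foxo3 and Insr in the portal and the central tertile of hepatocyte nuclei, in normalised CPM on linear axes from 0, with Liver in the upper row, Cell Suspension in the lower row and a line for each of the 8 mice. In Cell Suspension the Irs2 lines rose in all 8 mice, from 89.8 to 180 on the portal side to 262 to 417 on the central side.

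Within liver tissue 6 annotated cell types held at least 10 nuclei in all 8 samples, and hepatocytes had the highest mean level of 6 of the 8 members. Levels here are normalised CPM over all 48 sums of cell type and sample, so they differ somewhat from those above. The comparisons of cell types are given with TMM scaling alone, whose factors ran from 0.698 to 1.77. Before TMM scaling, Insr averaged 567 CPM in hepatocytes and 536 in endothelial cells. Pik3r1 then averaged 420 CPM in hepatocytes, 630 in Kupffer cells and 604 in stellate cells. Insr averaged 768 in hepatocytes, 617 in endothelial cells, 324 in stellate cells, 276 in Kupffer cells, 247 in other leukocytes and 219 in the class annotated as biliary. Of the 220 Liver nuclei in that class, 157 belonged to a cluster whose mesothelial markers summed to 3948 CPM and whose biliary markers summed to 294 CPM, and 63 to a cluster with biliary markers at 8277 CPM, so its markers go against the name for most of its nuclei and it is called biliary-annotated here. Hepatocytes and endothelial cells differed by 0.33 ± 0.13 (adjusted p = 0.0291) with overlapping samples, endothelial and stellate cells by 0.91 ± 0.14, and the lower neighbours in this order did not differ beyond their spread.

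Irs1 averaged 249 normalised CPM in hepatocytes, 124 in stellate, 99.8 in biliary-annotated, 52.4 in leukocyte, 30.8 in endothelial and 26.8 in Kupffer nuclei. The steps from hepatocytes to stellate cells (0.96 ± 0.17) and from biliary-annotated nuclei to leukocytes (1.24 ± 0.31) passed, and the other neighbours did not. Irs2 averaged 74.8 in hepatocytes and between 13.3 in endothelial cells and 29.2 in stellate cells elsewhere, with only the step from hepatocytes to stellate cells passing (1.34 ± 0.22). Trib1 likewise averaged 77.0 in hepatocytes and at most 27.9 elsewhere, in endothelial cells (1.46 ± 0.17), and was at 0 UMIs in some leukocyte and biliary-annotated sums.

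Akt2 averaged 86.7 normalised CPM in hepatocytes, 45.2 in endothelial cells and 30.4 to 41.9 in the rest, and the hepatocyte samples did not overlap the endothelial ones (0.93 ± 0.15). Foxo3 averaged 1008 in hepatocytes and 342 to 389 in all other types, which did not differ from their neighbours, and the step of 1.36 ± 0.14 from hepatocytes to leukocytes was without overlap. Foxo1 and Pik3r1 were not highest in hepatocytes. Foxo1 averaged 525 in endothelial cells, 474 in hepatocytes and 375 in leukocytes, neighbours that did not differ beyond their spread, and then 188 in stellate, 158 in Kupffer and 153 in biliary-annotated nuclei after a step of 1.05 ± 0.17. Pik3r1 averaged 693 in stellate cells, 603 in Kupffer cells and 569 in hepatocytes, which did not differ as neighbours, followed by 318 in endothelial cells after a step of 0.82 ± 0.14, 249 in leukocytes and 160 in biliary-annotated nuclei, the last step also passing at 0.57 ± 0.21.

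Of the 40 steps between neighbours in these orders, 11 passed. Hepatocytes passed as higher for 7 of 8 members against each of endothelial, Kupffer, stellate and leukocyte nuclei. The member that did not pass was Foxo1 against endothelial cells (-0.17) and leukocytes (0.28) and Pik3r1 against the other two (-0.12 and -0.30). Among all 24537 genes tested, the share that differed in either direction was 46.4% for hepatocytes against endothelial cells, 41.2% against Kupffer cells, 39.6% against stellate cells and 32.6% against leukocytes. It was 25.3% for endothelial against Kupffer cells, 19.9% against stellate cells and 22.2% against leukocytes, and 24.9% for Kupffer against stellate cells, 15.5% against leukocytes and 21.2% against biliary-annotated nuclei. It was 19.8% for stellate cells against leukocytes, 16.2% against biliary-annotated nuclei, and 17.6% for leukocytes against biliary-annotated nuclei. Nuclei of every other type also held hepatocyte transcripts, with the 10 hepatocyte markers at a median summed level of 2540 to 4951 CPM in Liver against 13117 in hepatocyte nuclei, and their part in the low levels of Irs1, Irs2 and Trib1 there was not tested.

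**Figure D4:**
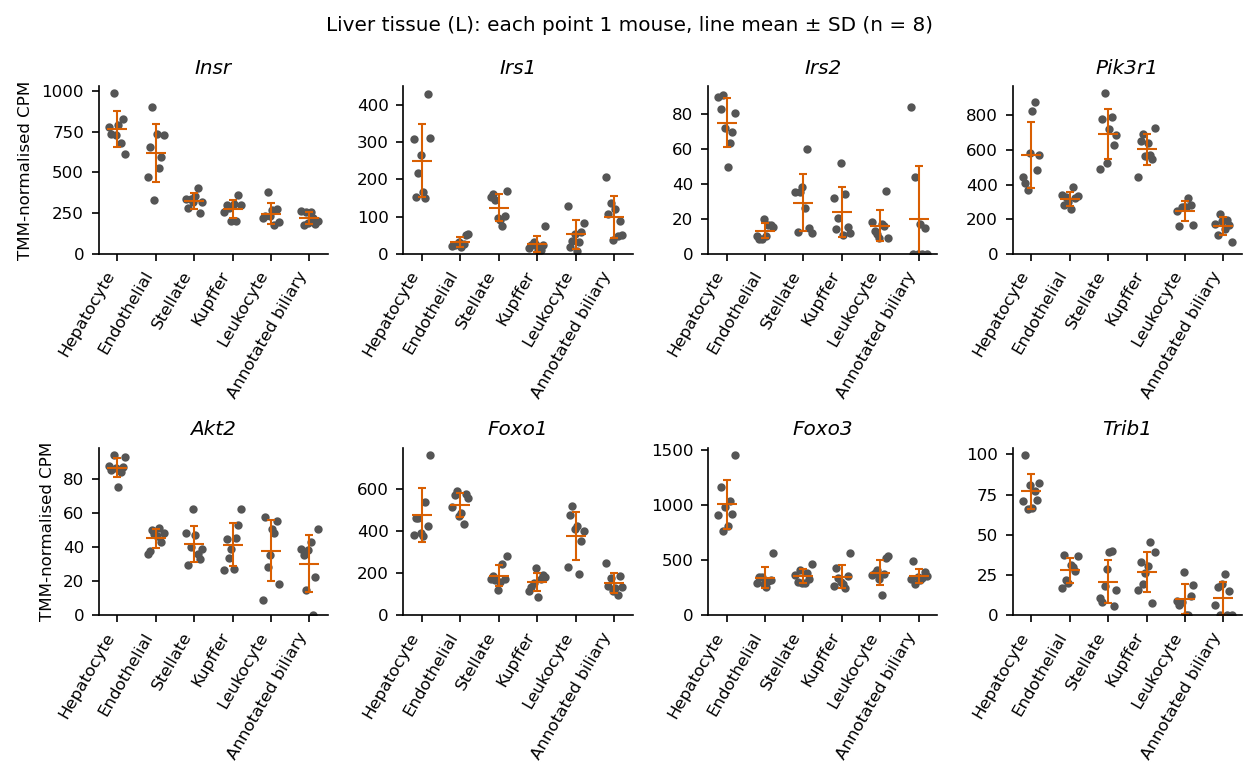
Level of each gene in 6 cell types of liver tissue, in normalised CPM, with 1 point per sample (8 per type) and bars for the mean ± SD, where the class annotated as biliary is mostly a cluster with mesothelial markers. Irs1, Irs2, Foxo3, Akt2 and Trib1 were highest in hepatocytes, where Foxo3 averaged 1008, whereas Pik3r1 in stellate and Kupffer cells and Foxo1 in endothelial cells overlapped the hepatocyte samples.

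Endothelial nuclei, of which Liver held 2474, Cell Suspension 1152 and Primary Hepatocytes 1809, shared the fall of Pik3r1 in culture and the rise of Irs2 and Trib1 after isolation, but not the fall of Irs1, Foxo3 and Insr in culture. From Liver to Cell Suspension Irs1 was at -0.74 ± 0.32 in endothelial nuclei, which did not pass, and at -0.81 in hepatocyte nuclei, with a difference in response of -0.04 ± 0.32 that did not pass either. Akt2 at -0.26 from Liver to Primary Hepatocytes did not pass in endothelial nuclei, and neither did its difference from the hepatocyte change. That difference passed without mouse 7 or 8, at 0.69 to 0.70. From Cell Suspension to Primary Hepatocytes it passed without mouse 3, 7 or 8, at 0.91 to 1.16. Most nuclei of this class were in clusters 3, 24 and 26 of the deposited annotation in Liver and Cell Suspension and in cluster 12, annotated as cultured cells, in Primary Hepatocytes (1733 of 1809), so the comparisons with culture are between different clusters. From Liver to Primary Hepatocytes 3 of 8 members passed, against 33.8% of 18279 genes, from Cell Suspension to Primary Hepatocytes 3 of 8 against 20%, and from Liver to Cell Suspension 2 of 8 against 3.9%. Irs1 at 0.93 ± 0.35 from Cell Suspension to Primary Hepatocytes (adjusted p = 0.0515, higher in 7 of 8 mice) was just short of passing, and it passed at 0.97 with RLE size factors, at 1.11 with library totals and at 1.02 with the mouse as a block, which made 4 of 8. Endothelial Irs1 rested on few UMIs per sample, 11 to 55 in Liver, 0 to 9 in Cell Suspension and 4 to 36 in Primary Hepatocytes. Pik3r1 had a median of 286 normalised CPM in the Liver samples (231 to 349), of 251 in the Cell Suspension samples (211 to 340) and of 124 in those of Primary Hepatocytes (98.6 to 179). All Primary Hepatocytes samples were below all others, with changes of -1.11 ± 0.14 from Liver (adjusted p = 2.98e-08) and -0.93 ± 0.15 from Cell Suspension (adjusted p = 5.51e-06). Before TMM scaling, Primary Hepatocytes reached 210 CPM and overlapped Cell Suspension, which began at 191.

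Trib1 in endothelial nuclei had a median of 26.0 normalised CPM in the Liver samples (15.5 to 34.6), of 49.1 in the Cell Suspension samples (20.2 to 91.7) and of 79.7 in those of Primary Hepatocytes (62.5 to 100). Here Primary Hepatocytes were the highest type, above all Liver samples, by 1.70 ± 0.20 over Liver (adjusted p = 3.50e-09) and by 0.82 ± 0.22 over Cell Suspension (adjusted p = 0.00499), and Cell Suspension exceeded Liver by 0.88 ± 0.23 (adjusted p = 0.0151), a call that was lost without mouse 1, 3 or 8 and with spliced or unspliced UMIs alone. The step from Cell Suspension to Primary Hepatocytes, at 0.91, was lost with unspliced UMIs alone. Irs2 rested on 0 to 28 UMIs per sample and ranged from 7.53 to 18.4 normalised CPM in Liver, from 14.7 to 179 in Cell Suspension and from 0 to 51.8 in Primary Hepatocytes, with overlap between all types. It was 1.93 ± 0.39 higher in Cell Suspension than in Liver (adjusted p = 0.00106, 8 of 8 mice) and 1.32 ± 0.38 higher in Primary Hepatocytes than in Liver (adjusted p = 0.00572, 7 of 8 mice), which did not pass without mouse 3 or, at 0.84, with spliced UMIs alone. Insr passed as 0.49 ± 0.17 higher in Primary Hepatocytes than in Cell Suspension (adjusted p = 0.0289), lost without mouse 1, 5 or 6 and, at 0.23, with spliced UMIs alone. Its difference of 0.28 between Primary Hepatocytes and Liver did not pass with TMM, but passed at 0.45 with RLE size factors and at 0.44 with library totals.

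The endothelial markers summed to 12708 to 16711 CPM in Liver endothelial nuclei, 9813 to 16080 in Cell Suspension and 5836 to 9959 in Primary Hepatocytes. The hepatocyte markers in the same nuclei summed to 2033 to 4231, 1853 to 6427 and 1249 to 4673 CPM, against 2415 to 6958 in the hepatocyte nuclei of Primary Hepatocytes, and the part of hepatocyte RNA in the endothelial changes was not tested.

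Whether the response differed between the 2 cell types was tested directly, as the endothelial minus the hepatocyte change. From Liver to Primary Hepatocytes 7 of 8 members differed, against 25.1% of 27025 genes, from Cell Suspension to Primary Hepatocytes 6 of 8 against 18.7%, and from Liver to Cell Suspension 1 of 8 against 2.46%. For Primary Hepatocytes over Liver, the difference was 1.80 ± 0.26 for Irs1 (adjusted p = 1.23e-08), which fell by 1.75 in hepatocytes and was at 0.19 in endothelial nuclei, and 1.32 ± 0.17 for Foxo3 (adjusted p = 2.27e-10), at -1.29 and 0.17. The endothelial change of Foxo3 passed as higher with spliced UMIs alone, at 0.86, and without mouse 8, at 0.42. Insr differed by 0.83 ± 0.18, Irs2 by 1.18 ± 0.32, Trib1 by 0.95 ± 0.21 and Pik3r1 by 0.58 ± 0.20, the last of which fell in both cell types and lost its call without mouse 4 or 5 and, at 0.32, with library totals. Foxo1 differed in the other direction, by -0.51 ± 0.18 (adjusted p = 0.0276), and lost its call on leaving out any of 6 of the 8 mice and, at -0.43, with RLE size factors, while Akt2 at 0.47 ± 0.24 did not pass. The rise of Irs2 from Liver to Cell Suspension was 2.12 in hepatocytes and 1.93 in endothelial nuclei with a difference of -0.33 ± 0.32, and that of Trib1 was smaller in endothelial nuclei by 0.86 ± 0.24 (adjusted p = 0.0230), lost without mouse 2 or 5, with library totals and with unspliced UMIs alone.

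**Figure D5:**
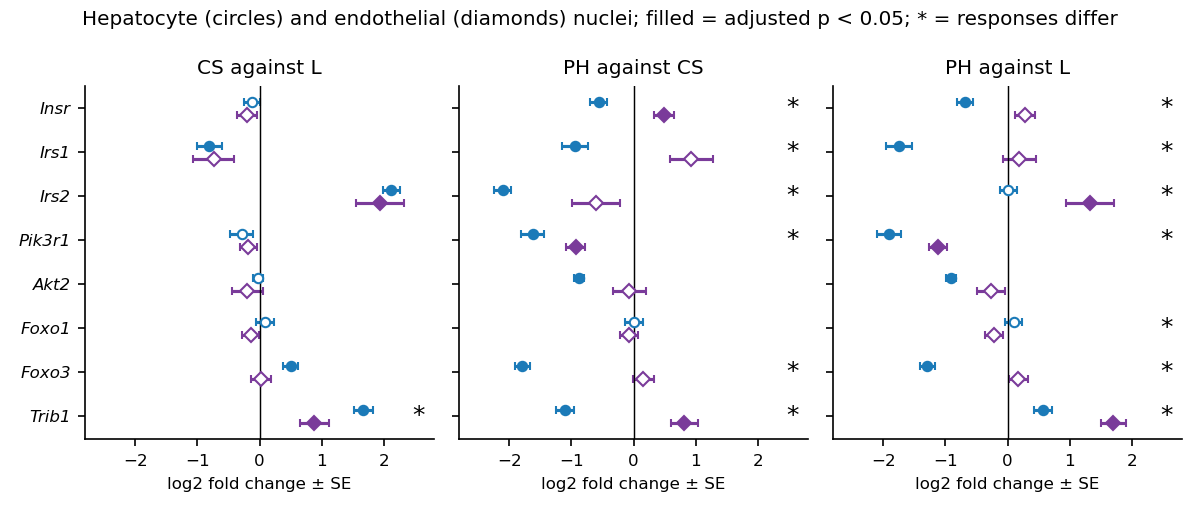
Log2 change with its SE of each gene in hepatocyte (circles) and endothelial nuclei (diamonds) for the 3 comparisons, with filled symbols where the adjusted p was below 0.05 and an asterisk where the 2 responses differed. For Primary Hepatocytes over Liver, Irs1 lay at -1.75 in hepatocyte and at 0.19 in endothelial nuclei.

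Kupffer cells and stellate cells were compared between Liver and Cell Suspension. In Kupffer cells 0 of 8 members passed with edgeR, against 1.3% of genes, and 1 was below an unadjusted p of 0.05, Trib1 at 0.98. In stellate cells 0 of 8 passed with edgeR against 3.19%, and 5 were below an unadjusted p of 0.05, of which Trib1 at 1.49 had an adjusted p of 0.0614. DESeq2 was not run on these nuclei. Their sums were shallow, with 342 Kupffer and 148 stellate nuclei over all Cell Suspension samples, 1 of which had 9 stellate nuclei and was left out, so changes of the size seen in endothelial cells may not have been detectable at this depth.

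Summed over all nuclei of a sample, in which fewer cells of a type and less RNA per cell cannot be told apart, the same members passed as in hepatocytes. Hepatocyte nuclei held most UMIs of these sums, for example 21226254 of 21713090 in Primary Hepatocytes of mouse 1 and 2104087 of 2709659 in Cell Suspension of mouse 7. The calls over all nuclei are thus not independent of those in hepatocytes. Members that passed numbered 6 of 8 from Liver to Primary Hepatocytes against 55.7% of 27269 genes, 7 of 8 from Cell Suspension to Primary Hepatocytes against 50.8%, and 4 of 8 from Liver to Cell Suspension against 20.6%. Over the last step Irs1 lost its call without mouse 7 or 8. From Liver to Primary Hepatocytes Foxo1 passed as higher without mouse 8, and Irs2 without mouse 6 or 7. Irs2 averaged 52.3 normalised CPM in tissue, 249 after isolation and 65.6 in culture, and its rise from Liver to Cell Suspension was 2.25 ± 0.15 (adjusted p = 4.81e-12). With the mouse as a block or with RLE size factors, Irs2 and Foxo1 also passed as higher in Primary Hepatocytes than in Liver, so that all 8 members passed. With library totals Insr no longer passed from Liver to Primary Hepatocytes, nor Insr, Irs1 and Akt2 from Cell Suspension. In the same setting Foxo1 and Irs2 came to pass as higher from Liver to Primary Hepatocytes, and Foxo1 from Cell Suspension.

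The rest of the pathway was followed in hepatocyte nuclei through 8 lists of 76 genes, none of which is a member. The counts of each list stand against 53.7% of all genes called from Liver to Primary Hepatocytes, 22.3% from Liver to Cell Suspension and 50.4% from Cell Suspension to Primary Hepatocytes. At the level of the receptor and adaptors, 3 of 14 genes rose and 8 fell from Liver to Primary Hepatocytes, with a median of -0.43 against 0.10 for all genes. Ceacam1, which promotes insulin clearance, went from a mean of 25.6 normalised CPM in tissue to 3.38 in culture (-2.92 ± 0.17), and Enpp1, an ectoenzyme that can inhibit the receptor, from 53.9 to 9.93 (-2.44 ± 0.17). Grb10, an adaptor that inhibits the receptor, rose from 5.39 to 23.8 (2.11 ± 0.42, adjusted p = 7.04e-05), and Igf1r, the related IGF1 receptor, from 4.75 to 6.48 (0.46 ± 0.15, adjusted p = 0.0112). From Liver to Cell Suspension 2 of 14 rose and 2 fell, with a median of 0.24, a share called near the 22.3% of all genes. Socs3, a feedback inhibitor of cytokine and insulin receptors, was among those that rose, from 6.52 to 135 normalised CPM (20.6-fold, adjusted p = 1.93e-09), and was 4.51 in culture. It is named after its values were seen.

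Among PI3K subunits and lipid phosphatases, 2 of 11 rose and 4 fell from Liver to Primary Hepatocytes (median -0.04), a share called near the 53.7% of all genes. Inpp4b, a lipid phosphatase, fell by 0.92, and Pik3c2a, a class II PI3K, rose by 0.66. Of the AKT kinases, the TORC2 subunits and the AKT inhibitors, 5 of 10 rose and 4 fell (median 0.10). Akt1 rose from 9.65 to 19.0 (0.98 ± 0.12, adjusted p = 3.12e-08), opposite to Akt2. Of the 2 PHLPP phosphatases that act on AKT, Phlpp1 fell by 1.86 and Phlpp2 rose by 1.53. From Liver to Cell Suspension 1 of 11 PI3K genes rose and 2 fell, and with edgeR 0 of 10 genes of the AKT list passed, with 1 below an unadjusted p of 0.05 and 0 called by DESeq2.

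In the mTORC1 branch 3 of 9 rose and 6 fell in culture (median -0.34). Deptor, an inhibitor of mTOR, fell from 952 to 101 normalised CPM (-3.24 ± 0.22), and of the 2 repressors of translation that mTORC1 inactivates Eif4ebp1 rose by 2.10 and Eif4ebp2 fell by 1.42. In the glycogen branch 6 of 7 fell and none rose (median -2.02). Gys2, the glycogen synthase of liver, fell 38.9-fold from 588 to 15.2 normalised CPM, and the glycogen-targeting subunits Ppp1r3c and Ppp1r3b fell by 4.43 and 3.37. Of the other FOXO genes Foxo4 fell by 0.65 with TMM scaling and Foxo6 did not pass, and with library totals neither passed. From Liver to Cell Suspension 0 of the 2 passed with edgeR, 0 were below an unadjusted p of 0.05 and 0 were called by DESeq2. Over that step 1 of 9 mTORC1 genes rose and 2 fell, and 2 of 7 glycogen genes rose and 1 fell, against 22.3% of all genes called in either direction.

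Genes that FOXO1 is known to raise and genes that insulin is known to raise both included genes that were higher in Cell Suspension and lower in culture. From Liver to Cell Suspension 6 of 13 FOXO1-raised genes rose and 1 fell (median 0.04), and 6 of 10 insulin-raised genes rose and none fell (median 1.13). Pck1 and G6pc, which encode enzymes of glucose production, rose from 1360 to 3777 and from 1171 to 3493 normalised CPM, and Igfbp1, which encodes an IGF-binding protein, from 78.1 to 406 (2.38 ± 0.38, adjusted p = 1.97e-05). Of the insulin-raised genes, Thrsp, which promotes fat synthesis, rose from 570 to 1332 and Insig1, which holds back the activation of SREBP, from 293 to 612, while Elovl6, a fatty acid elongase, at 0.43 did not pass.

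From Liver to Primary Hepatocytes 6 of 13 FOXO1-raised genes fell and 3 rose (median -0.31), and 10 of 10 insulin-raised genes fell (median -2.51). Pck1 fell 41.5-fold to 32.8 normalised CPM, G6pc 21.8-fold to 53.7, and Klf15, a transcription factor, 10.5-fold to 17.2, whereas Igfbp1 at 103 did not differ from tissue beyond its error (0.40 ± 0.36). Thrsp fell 30.3-fold, Elovl6 10.1-fold and Insig1 9.09-fold. From Cell Suspension to Primary Hepatocytes, the lists had 2 of 14 higher and 7 lower for receptor and adaptors, 4 and 3 of 11 for PI3K, 4 and 4 of 10 for AKT, 2 and 5 of 9 for mTORC1, 1 and 6 of 7 for glycogen, 0 and 1 of 2 for FOXO, 1 and 9 of 13 for FOXO1-raised and 0 and 10 of 10 for insulin-raised genes, with medians from -3.77 for the last to 0.14 for AKT.

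With library totals, the medians for Liver to Primary Hepatocytes moved to 0.14 for receptor and adaptors, 0.53 for PI3K, 0.23 for mTORC1, 0.16 for the other FOXO genes and 0.25 for FOXO1-raised genes, so the sign of these medians depended on the scaling, while each stayed below the median of all genes under both, 0.10 with TMM and 0.66 with library totals. The called genes Ptpn1, Sh2b1, Sh2b2, Shc1, Pik3r2, Pik3r3, Rps6kb1, Rptor, Tsc1, Tsc2 and Gsk3b changed sign with library totals. The glycogen and the insulin-raised lists stayed lower with medians of -1.46 and -1.96, and 10 of 10 insulin-raised genes still fell. From Liver to Cell Suspension the insulin-raised genes had a median of 0.98 with library totals and 1.20 with RLE size factors, and the same count of 6 rose under both, while the median of the FOXO1-raised genes was -0.09 and 0.12. The counts from Cell Suspension to Primary Hepatocytes became, with library totals, 6 higher and 6 lower for receptor and adaptors. They were 6 and 1 for PI3K, 6 and 2 for AKT, 5 and 1 for mTORC1 and 0 and 0 for FOXO. Glycogen had 2 and 5, FOXO1-raised genes 3 and 7 and insulin-raised genes 0 and 9. Over this step the called genes Mapkap1, Mlst8, Gsk3b, Rptor, Tsc1, Foxo4 and Sh2b1 changed sign with library totals.

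The genes whose level in hepatocyte nuclei varied most like that of a member were sought among 9712 genes, as the correlation over the 24 samples of deviations from the mean of the sample type. This is a description, and the samples share pools, mice and depth. For Insr the nearest were Kidins220 (r = 0.91), Relch and Zfand6, and for Irs1 they were Elovl2 (r = 0.90), Serpinc1 and Trio. Pik3r1 was nearest to Gpat4 (r = 0.89), Zfp809 and Lman1, Foxo1 to Ppme1 (r = 0.85), Nr1i2 and Pde4dip, and Trib1 to Cyp2d26 (r = 0.82), Tle2 and Trim39. Lower values were found for Foxo3 with Nhlrc2 (r = 0.79), Klf13 and Nr1i2, for Akt2 with Atp6v1c1 (r = 0.76), Atp6v0d1 and Gatad2a, and for Irs2 with Ldha (r = 0.74), Slc22a5 and Efna1. Between members the correlations ran from -0.29 for Insr with Trib1 to 0.55 for Foxo1 with Foxo3, and Irs1 with Irs2 had 0.33.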

How the data were processed

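Nuclei of 24 samples were run in 6 pools of 4 on a droplet platform that counts RNA from its 3′ end. Per the study's methods, the authors converted reads with bcl2fastq 2.19.0 and counted UMIs with Salmon, alevin and alevin-fry against spliced and unspliced GRCm38 transcripts, assigned nuclei to samples by hashtag, removed doublets and annotated the clusters. A hashtag named CD2, whose nuclei the deposited table places in the Cell Suspension group, was read as Cell Suspension of mouse 2. The deposited values are raw counts of spliced, unspliced and ambiguous UMIs, which were added. The nuclei annotated as cultured cells were assigned to a cell type by the deposited cluster and its markers. Levels between genes were not compared, since 3′ counting does not capture all genes alike.

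Counts were summed per sample and cell type (at least 10 nuclei), genes with 10 or more counts were tested with the quasi-likelihood test of edgeR 4.0.16 (R 4.3.3, limma 3.58.1) after TMM scaling, and p-values were adjusted over all genes by Benjamini-Hochberg with a threshold of 0.05. The SE is the log2 change over the square root of the F statistic. Cell types and zones of 1 liver were compared with the mouse as block, and cell types' responses with the sample as block. Spliced shares were compared by exact two-sided permutation of 8 against 8 samples in Python 3.11.15 with scipy 1.17.1, numpy 2.4.6 and pandas 2.3.3, for which the smallest p is 0.0001554, and figures were drawn with matplotlib 3.10.9. The permutation treated the samples as unpaired, although each mouse gave 1 of each type, and no paired alternative is given. Alternatives were DESeq2 1.42.0, RLE size factors, library totals, other filters, 1 splicing state, thinning, the pool as covariate, the mouse as replicate block and leaving out each mouse. On simulated counts the edgeR step called 99 of 100 genes changed by 1 on the log2 scale between Liver and Primary Hepatocytes hepatocyte sums, of 26474 genes run. It also called 7 unchanged genes. Few genes were changed there, whereas 53.7% were called in the data, so the simulation cannot test the scaling.

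The members and the gene lists were chosen with earlier results of these data known. Their counts beside the share of all genes thus describe these data and do not test the pathway. Besides the members, the text names from each pathway list the 3 called genes of at least 10 CPM with the largest change from Liver to Primary Hepatocytes, and Igf1r, Akt1, Foxo4 and Igfbp1, and for each member the 3 genes most alike. Some genes that this rule selects are not reported here. The mouse number in the labels pairs the samples, as each liver gave all 3. Over 9712 genes, deviations from the mean of the sample type correlated between Liver and Cell Suspension of the same mouse at 0.33 to 0.83 (median 0.64), and between Liver and Primary Hepatocytes at -0.05 to 0.12. Between different mice the values were -0.54 to 0.45 (median -0.09) and -0.19 to 0.20. Cell Suspension with Primary Hepatocytes had -0.17 to 0.11 in the same mouse and -0.26 to 0.21 in different mice. The pairing of Primary Hepatocytes by mouse thus rests on the labels alone. Each sample came from 1 mouse, so the spread includes that between animals.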

Additional observations from a re-analysis of the deposited data

Results flagged for a closer look

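Of 48 groups of 8 samples, 6 held a sample farther from its nearest neighbour than Dixon's limit for 8 samples allows, a limit that chance passes in about 1 group in 20. In hepatocyte nuclei these were Foxo1 in Liver of mouse 8, at 618 normalised CPM with the next sample at 435, and Pik3r1 in Primary Hepatocytes of mouse 1, at 168 with the next at 133. In endothelial nuclei they were Foxo3 in Liver of mouse 8 at 517 (next 317), Foxo3 in Primary Hepatocytes of mouse 7 at 214 (next 336), Irs2 in Cell Suspension of mouse 4 at 179 (next 64.2) and Pik3r1 in Cell Suspension of mouse 7 at 340 (next 272).

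Endothelial and hepatocyte nuclei differed in their response in 14 of 24 tests with edgeR. Of all genes, 25.1% differed for Primary Hepatocytes over Liver, 18.7% for Primary Hepatocytes over Cell Suspension and 2.46% for Cell Suspension over Liver. For Primary Hepatocytes over Liver the endothelial change exceeded the hepatocyte change by 1.80 for Irs1, 1.32 for Foxo3, 1.18 for Irs2, 0.95 for Trib1, 0.83 for Insr and 0.58 for Pik3r1 on the log2 scale, and Foxo1 differed by -0.51. For Primary Hepatocytes over Cell Suspension it exceeded it by 1.88 for Foxo3, 1.84 for Irs1, 1.81 for Trib1, 1.51 for Irs2, 0.94 for Insr and 0.57 for Pik3r1, the last lost without mouse 4 or 5 and, at 0.15, with library totals. For Cell Suspension over Liver, Trib1 differed by -0.86. The settings in which this call, and those of Foxo1 and Pik3r1 for Primary Hepatocytes over Liver, were lost are given above. The part of hepatocyte RNA in the endothelial nuclei was not tested.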

How the results depend on the processing

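Over 2024 recomputed values of single members, 1895 stayed on the same side of the threshold, of which 81 changed sign without passing in either setting, 49 came to pass it, 73 no longer passed and 7 reversed. Of 247 recomputed counts of called members, 229 stayed within 1.5 times. The hepatocyte counts of 6, 7 and 4 were the same on leaving out any 1 mouse, and the replicate block of the mouse changed no hepatocyte call. With the replicate block all 8 members passed from Liver to Primary Hepatocytes over all nuclei, and Irs1 passed from Cell Suspension to Primary Hepatocytes in endothelial nuclei.

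With spliced UMIs alone, Insr turned to 0.56 in hepatocyte and 0.62 in all nuclei from Liver to Cell Suspension, and Irs1 to 0.014 and 0.088, while with unspliced UMIs alone Trib1 turned to -0.054 in hepatocyte nuclei from Liver to Primary Hepatocytes. Library totals turned Insr to 0.15 in hepatocyte and 0.19 in all nuclei from Cell Suspension to Primary Hepatocytes. The cause was not tested. The 2 endothelial calls from Liver to Cell Suspension became 1 with spliced or unspliced UMIs alone and 1 to 2 without single mice (1 without mouse 1, 3 or 8). The 1 difference in response over the same step became 0 with library totals and 0 to 2 without single mice. The 3 zonal calls became 1 each in Liver (Irs1) and Cell Suspension (Irs2) with no replicate block, and those in Liver ranged from 1 to 4 without single mice, with 1 left without mouse 3. Stellate cells, with 0 calls, had 2 with RLE size factors, 1 with library totals, 1 with samples of at least 5 nuclei, and 0 to 1 without single mice.

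Library totals, the removal of the low-UMI cluster of cultured nuclei and the test of the zonal difference were chosen after seeing the data. The zonal difference was not refitted without single mice. Irs2 in endothelial nuclei rested on at most 28 UMIs per sample, and endothelial Irs1 on at most 9 in Cell Suspension. After thinning all hepatocyte sums to the smallest total Irs1 at -0.61 no longer passed from Liver to Cell Suspension, nor Insr at -0.38 from Liver to Primary Hepatocytes, where Irs2 at 0.44 came to pass.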
